A study of Mus musculus with 15 samples.

Results

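Immediate early genes are the first genes a cell transcribes after a stimulus, without new protein synthesis, from signals that reach factors already bound at their promoters. Their mRNAs are short-lived, and many encode transcription factors or feedback regulators. In the heart they are known to respond within minutes to stretch, adrenergic stimulation, ischemia and tissue handling. The 10 genes described here are Fos, Fosb, Jun, Junb, Egr1, Atf3, Ier2, Nr4a1, Dusp1 and Btg2, taken by symbol from the deposited count table. All 10 were among its 17447 genes and among the 13021 genes that passed the filter on low counts.

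RNA was taken from hearts of male C57BL/6J mice, with 3 libraries in each of 5 groups, collected 18 weeks after surgery. The mice were 6 to 8 weeks old when they entered the study. WTSHAM mice were wild type and had a sham operation that removed no kidney tissue, and no virus or vector is described for them. WTCKD and WTCKD + RNLS mice were wild type with chronic kidney disease (CKD) from a subtotal nephrectomy. KOCKD and KOCKD + RNLS mice had the same surgery and lacked renalase (RNLS), a gene disrupted by TALEN editing. In week 2 the WTCKD and KOCKD mice received the vector, and the 2 groups named with RNLS received AAV9-cTnT-Rnls, a virus that expresses renalase from the cardiomyocyte troponin T promoter. Both CKD control groups thus carried the vector, and where the sham mice received none, CKD and vector cannot be told apart in the comparison with sham. Rnls was not among the genes analysed here, so genotype and virus rest on the labels. The libraries held 10480788 to 13424078 counted reads. Summed cardiomyocyte markers, from Myh6 to Mb, ran from 104200 to 141700 CPM (counts scaled to a common library size) in every library. Levels below are CPM after TMM scaling. In whole tissue, fewer cells of a type and less RNA per cell cannot be told apart.

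No immediate early gene passed the test in any group comparison, although several differed many-fold between hearts of the same group. In WTSHAM replicate 1, WTCKD replicate 2 and KOCKD replicate 3 nearly the whole set was high together. In the remaining hearts of those groups most of these genes were lower, with exceptions such as Egr1 and Nr4a1 in KOCKD replicate 1. In 3 of the 4 pairwise comparisons the median change of the set turned sign when 1 of these hearts was left out.

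Promoters are shown first, since many immediate early genes are known to be switched on through the cAMP response element, TGACGTCA, which binds CREB and ATF factors. RefSeq promoter sequence (GRCm38.p6, 250 bases before to 50 after the annotated start) was matched for 8 of the 10 genes, and Ier2 and Egr1 had no entry. The full element, searched on both strands, was found in 2 of the 8 promoters, against 1.79% of 32851 mouse promoters of the same length. In Dusp1 it lay at bases -143 to -136 from the start, and in Btg2 at -166 to -159. The TGACG core of the element, read as TGACG or CGTCA and overlapping every full element, occurred in 7 of 8, all but Jun, against 20.8% of promoters. This core was chosen for display after the sequences had been seen. Nr4a1 held 4 cores, a number reached by 0.231% of promoters, and Dusp1 held 3, reached or exceeded by 1.03%. Fos and Btg2 held 2 each. The cores of Btg2 were the 2 strands of its full element, as were those of Dusp1 at -143 to -139 and -140 to -136. Printed are the 250 bases before the start in these 4 genes, 5′ to 3′ on the gene's strand, with the cores in capitals. They lie at chr12:85473640-85473889 (+ strand), chr15:101266596-101266845 (+), chr17:26508473-26508722 (-) and chr1:134079156-134079405 (-).
Fos: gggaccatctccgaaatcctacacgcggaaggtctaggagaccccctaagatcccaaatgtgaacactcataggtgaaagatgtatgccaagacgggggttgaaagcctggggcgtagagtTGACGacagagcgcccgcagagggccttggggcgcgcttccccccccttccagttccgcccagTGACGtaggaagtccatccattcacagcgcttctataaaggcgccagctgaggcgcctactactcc
Nr4a1: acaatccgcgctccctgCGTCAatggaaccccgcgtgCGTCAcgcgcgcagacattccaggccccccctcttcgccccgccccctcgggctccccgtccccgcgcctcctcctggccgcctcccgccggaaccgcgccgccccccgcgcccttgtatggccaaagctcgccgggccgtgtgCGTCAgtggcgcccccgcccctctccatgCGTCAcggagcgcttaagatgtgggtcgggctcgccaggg
Dusp1: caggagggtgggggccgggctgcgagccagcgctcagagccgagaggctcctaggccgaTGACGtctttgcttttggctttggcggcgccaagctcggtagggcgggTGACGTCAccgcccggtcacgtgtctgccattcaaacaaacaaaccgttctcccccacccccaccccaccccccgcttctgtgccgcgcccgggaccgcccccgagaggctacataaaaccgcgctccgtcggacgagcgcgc
Btg2: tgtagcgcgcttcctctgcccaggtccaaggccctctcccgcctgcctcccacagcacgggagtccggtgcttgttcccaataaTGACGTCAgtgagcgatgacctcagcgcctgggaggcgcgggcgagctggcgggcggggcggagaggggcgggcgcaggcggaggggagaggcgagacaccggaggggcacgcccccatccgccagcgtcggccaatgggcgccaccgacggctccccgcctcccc
TATAAA was found in Fos and Junb, 2 of the 8, against 13.6% of promoters. TGACTCA, the site that AP-1 dimers bind, was in 0 of 8 windows (5.2% of all promoters), and the CArG box, the site of serum response factor, was in 0 of 8 (1.63%). No match says only that these letters are not in this window.

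Levels between genes were compared per length, as FPKM from the deposited files. Dusp1, a phosphatase that switches off MAP kinases, had the highest median over the 15 libraries, 44.5 FPKM (31.9 to 110.5). Jun followed at 19.7, Egr1 at 14.6, Btg2 at 11.7, Ier2 at 9.59, Junb at 9.23 and Nr4a1 at 7.61. Fos (3.71), Atf3 (2.56) and Fosb (0.542) had the lowest medians. Dusp1 exceeded Jun in 15 of 15 libraries and Atf3 exceeded Fosb in 14 of 15, so these steps of the order held in nearly every heart. Jun exceeded Egr1 in only 8 of 15, Egr1 exceeded Btg2 in 8 and Ier2 exceeded Junb in 7, so these neighbours did not differ beyond their spread. Fosb rested on few reads, 4 to 135 counts per library, and Fos on 10 to 686.

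**Figure D1:**
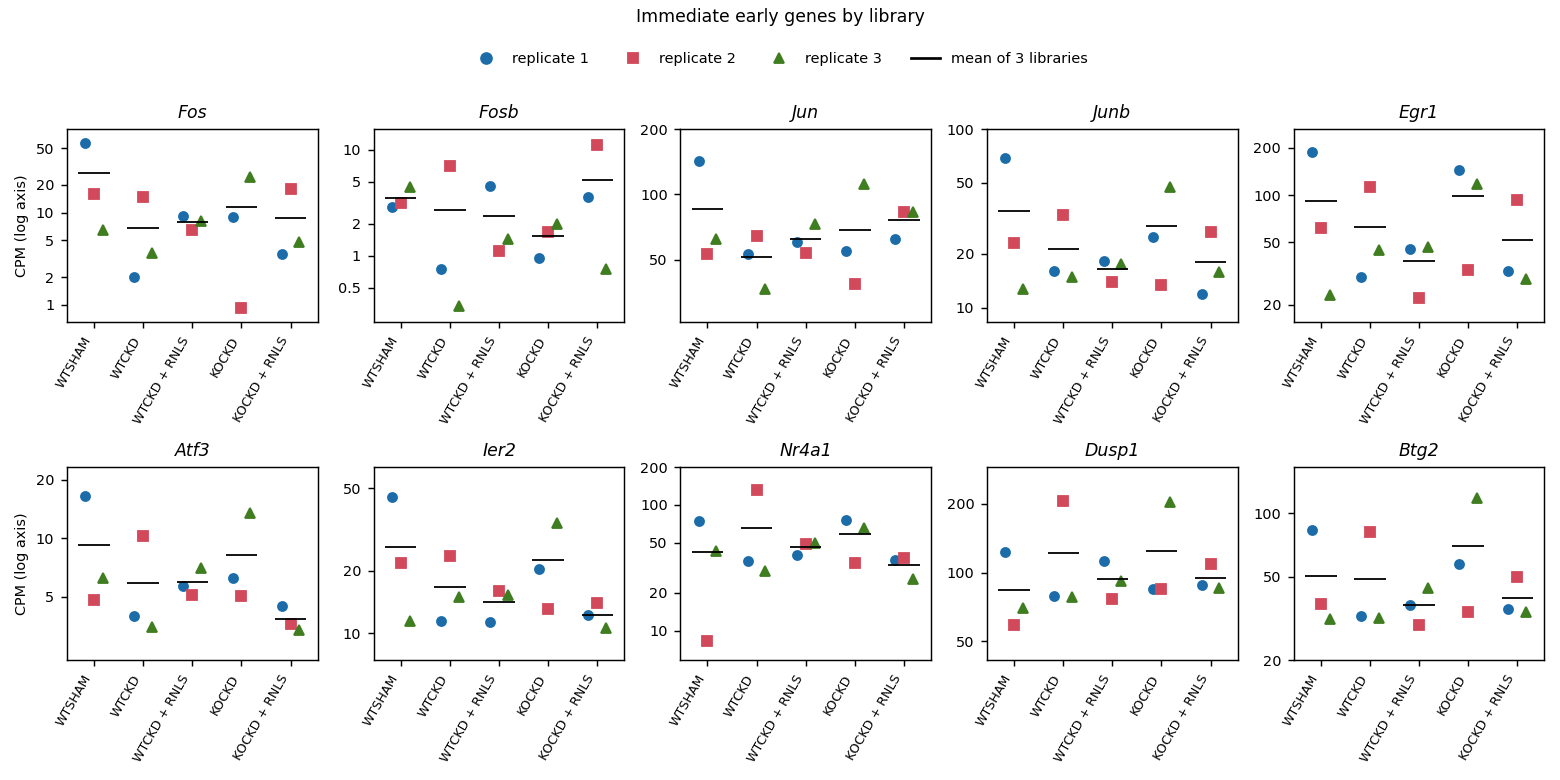
CPM of each immediate early gene (log axis) in the 3 libraries of each group, with symbols for replicates 1, 2 and 3 and a line at the group mean. The circle of WTSHAM (replicate 1), the square of WTCKD (replicate 2) and the triangle of KOCKD (replicate 3) stand above the other libraries of their group in most panels, while WTCKD + RNLS points lie close together except for Fosb and Egr1.

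The AP-1 subunits come first. Fos pairs with Jun proteins to form the AP-1 transcription factor. In replicates 1, 2 and 3 of WTSHAM its CPM was 57.2, 16.0 and 6.48, and in WTCKD 2.03, 14.7 and 3.66. In WTCKD + RNLS the values were 9.10, 6.41 and 8.04. In KOCKD they were 8.92, 0.932 and 24.4, and in KOCKD + RNLS 3.58, 18.0 and 4.78. Fos thus spanned 61.4-fold from KOCKD replicate 2 to WTSHAM replicate 1, and 26.2-fold within KOCKD alone. The ranges of the compared groups overlapped in each of the 4 pairwise comparisons.

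Fosb, a Fos relative whose products also enter AP-1, did not follow the rest in the sham hearts. Its CPM was 2.92, 3.16 and 4.49 in WTSHAM and 0.761, 6.98 and 0.340 in WTCKD. WTCKD + RNLS held 4.59, 1.11 and 1.46. KOCKD held 0.962, 1.68 and 2.01, and KOCKD + RNLS 3.58, 11.2 and 0.749. WTCKD replicate 2 and KOCKD + RNLS replicate 2 were the high hearts, and WTSHAM replicate 1, which led most genes, was the lowest of its group here.

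Jun, the partner that can also pair with itself, had the smallest SD of log2 CPM within groups (0.54), although Dusp1 spanned less over the 15 libraries (3.50-fold against 3.86-fold). WTSHAM had 142.3, 53.3 and 62.3 CPM, and WTCKD 53.3, 64.6 and 36.8. WTCKD + RNLS had 60.3, 53.9 and 73.4. KOCKD had 54.9, 38.6 and 111.3, and KOCKD + RNLS 62.5, 83.2 and 83.1. WTSHAM replicate 1 and KOCKD replicate 3 stood above all other hearts. Junb, a Jun relative, had 69.1, 23.2 and 12.7 CPM in WTSHAM and 16.2, 33.2 and 14.8 in WTCKD. Its WTCKD + RNLS values were 18.3, 13.9 and 17.5. KOCKD hearts held 25.02, 13.4 and 47.7 and KOCKD + RNLS hearts 11.9, 26.5 and 15.8. WTSHAM replicate 1, KOCKD replicate 3 and WTCKD replicate 2 were the top 3 libraries for Junb.

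Atf3, an ATF/CREB family factor induced by stress that can dimerize with Jun, had 16.6, 4.81 and 6.26 CPM in WTSHAM. It had 3.97, 10.3 and 3.49 in WTCKD and 5.67, 5.11 and 7.04 in WTCKD + RNLS. In KOCKD it had 6.21, 5.03 and 13.5, and in KOCKD + RNLS 4.47, 3.64 and 3.37. All 3 KOCKD + RNLS hearts lay below all 3 KOCKD hearts, with a gap between 4.47 and 5.03. Over the 10 genes and 4 pairwise comparisons, this was the only case in which the groups did not overlap. Of all genes tested, 19.3% to 40.6% did not overlap in these comparisons, 40.6% in this one, so 1 of 40 was below that share.

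Egr1, a zinc finger factor, reached 188.4 CPM in WTSHAM replicate 1 against 62.3 and 23.3 in the other replicates. WTCKD had 30.2, 113.4 and 44.8, and WTCKD + RNLS 45.6, 22.2 and 46.9. KOCKD had 145.2, 33.4 and 117.8, and KOCKD + RNLS 33.0, 92.8 and 29.2. KOCKD replicate 1 was high for Egr1, above replicate 3. Nr4a1, an orphan nuclear receptor, shared that pattern, with 75.3, 34.7 and 65.2 CPM in KOCKD and 36.7, 37.7 and 25.6 in KOCKD + RNLS. Its level was 74.5, 8.35 and 42.9 in WTSHAM and 36.1, 132.4 and 29.6 in WTCKD. WTCKD + RNLS had 39.7, 49.4 and 49.5. The lowest Nr4a1 level of all hearts, in WTSHAM replicate 2, was 15.9-fold under the highest, in WTCKD replicate 2.

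Of the regulators, Ier2 encodes a small nuclear protein. Its CPM was 45.3, 21.8 and 11.5 in WTSHAM and 11.5, 23.5 and 14.9 in WTCKD. WTCKD + RNLS had 11.3, 16.1 and 15.2. KOCKD had 20.5, 13.1 and 34.1, and KOCKD + RNLS 12.3, 14.1 and 10.6. KOCKD + RNLS lay low, but its replicate 2 was above KOCKD replicate 2. Dusp1 had 123.2, 59.1 and 70.0 CPM in WTSHAM, 79.1, 206.6 and 77.9 in WTCKD, and 111.9, 76.3 and 92.1 in WTCKD + RNLS. KOCKD had 85.0, 84.8 and 202.6, and KOCKD + RNLS 87.8, 109.1 and 85.6. WTCKD replicate 2 and KOCKD replicate 3 stood far above the other hearts. Btg2, an antiproliferative cofactor of mRNA deadenylation, had 83.6, 36.8 and 31.4 CPM in WTSHAM, 32.6, 81.2 and 31.7 in WTCKD, and 36.7, 29.4 and 44.1 in WTCKD + RNLS. KOCKD had 57.3, 33.7 and 118.7, and KOCKD + RNLS 34.9, 50.04 and 33.9. As for Junb, its top 3 libraries were KOCKD replicate 3, WTSHAM replicate 1 and WTCKD replicate 2.

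A test of any difference among the 5 groups (edgeR's quasi-likelihood F-test with Benjamini-Hochberg adjustment over all genes tested) called 0 of the 10 genes, against 22.2% of genes tested. The adjusted p ran from 0.173 for Ier2 to 0.597 for Dusp1, and 0 of 10 had an unadjusted p under 0.05. DESeq2 also called 0 of the 10, against 30.2% of genes tested. Without WTSHAM replicate 3, Ier2 passed with an adjusted p of 0.0457. WTSHAM had the highest mean CPM of Fos (26.6 ± 27.0, SD, n = 3), Jun (86.0 ± 49.0), Junb, Atf3 and Ier2. KOCKD had that of Egr1 (98.8 ± 58.3), Dusp1 (124.2 ± 68.0) and Btg2, WTCKD that of Nr4a1 (66.0 ± 57.6) and KOCKD + RNLS that of Fosb (5.16 ± 5.39). The SDs were nearly as large as the means in several of these, so no order of the groups was resolved.

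CKD against sham asked what renal failure did to the wild-type heart. In WTCKD, 8 of the 10 fitted log2 fold changes were below 0 and 2, Nr4a1 and Dusp1, above it. None passed the test: 0 of 10 were called at an adjusted p under 0.05, against 2.3% of all genes tested. The median of the 10 was -0.59, with all genes tested at -0.01. The largest was Fos, at -1.97 ± 0.90 (log2, SE), with an unadjusted p of 0.0424 and an adjusted p of 0.265 by edgeR's quasi-likelihood test. Jun was at -0.74 ± 0.36, and the remaining AP-1 genes Junb, Atf3 and Fosb at -0.71, -0.64 and -0.41. Nr4a1 was at 0.66 and Dusp1 at 0.53. DESeq2 called 0 of 10 as well, against 4.26% of genes tested. No gene separated the groups (0 of 10, against 22.5% of genes tested), and 1 gene, Fos, met the study's own rule of a fold over 1.25 with an unadjusted p under 0.05 (11.3% of genes did). The direction rested on WTSHAM replicate 1. Without that heart the median became 0.17 and Fos -0.74. Without WTCKD replicate 2 the median was -1.08. Across the tested genes with enough reads, WTSHAM replicate 1 also stood apart from replicates 2 and 3. The chi-square per degree of freedom was 19.8 and 20.5, against 9.08 between those 2. WTCKD + RNLS replicate 2 stood apart from its group in the same way (21.5 and 19.6, against 9.01).

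In wild-type CKD hearts AAV9-cTnT-Rnls against vector gave 7 values below 0 and 3 above, with a median of -0.29 (0.01 for all genes tested). Again 0 of 10 were called, against 4.47% of genes, and the smallest adjusted p was 0.627, for Egr1 at -0.71 ± 0.69. Nr4a1 was at -0.51, Btg2 at -0.39, Dusp1 at -0.37 and Junb at -0.36. Fos (0.23), Jun (0.28) and Atf3 (0.02) were above 0. No gene separated the groups (0 of 10, against 21.2%). An unadjusted p under 0.05 was found for 0 of 10, against 20.2% of genes tested. Thus 0 met the fold rule that 14.4% of genes met. DESeq2 called 0 of 10, against 6.87% of genes tested. Leaving out WTCKD replicate 2, the high heart of the vector group, moved the median to 0.37.

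In the same comparison in knockout hearts, Atf3 and Ier2 were the members with an unadjusted p under 0.05, 2 of 10 against 31.6% of genes tested. Atf3 was at -1.11 ± 0.49 (log2, SE), from 8.23 ± 4.56 CPM (SD, n = 3) in KOCKD to 3.83 ± 0.572 in KOCKD + RNLS. Its unadjusted p was 0.0376 and its adjusted p 0.132 by edgeR. Ier2 was at -0.88 ± 0.41, with an unadjusted p of 0.0486 and an adjusted p of 0.155. Egr1 (-0.93), Btg2 (-0.82), Nr4a1 (-0.81), Junb (-0.68), Dusp1 (-0.40) and Fos (-0.39) were below 0 too. Jun stood at 0.16 and Fosb at 1.73 ± 0.89, its highest library being KOCKD + RNLS replicate 2. In all, 8 of 10 were below 0 with a median of -0.74 (-0.01 for all genes tested), and 0 of 10 were called, against 16.1% of genes. The 1 gene of 10 whose groups did not overlap compares with 40.6% of genes tested, and the 2 that met the fold rule, Atf3 and Ier2, with 22.3%. Neither share was above the background. DESeq2 called 0 of 10, against 18.1% of genes tested. When only the 6 libraries of this comparison were fitted, Atf3 (adjusted p = 0.0352), Ier2 (0.0372) and Nr4a1 (0.0279) passed edgeR's test, 3 of 10, where 25% of 12466 genes passed. KOCKD replicate 3 carried much of the difference: without it the median was -0.14, Atf3 was at -0.55 and Ier2 at -0.45.

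Between KOCKD and WTCKD, 8 of the 10 were above 0, with a median of 0.44 (-0.00473 for all genes tested). Fos was at 0.78 ± 0.92, Egr1 at 0.66 and Btg2 at 0.53, and Fosb at -0.76. edgeR called 0 of 10, and 0% of all genes, although 1318 genes had an unadjusted p under 0.05 and DESeq2 called 9. None of the 10 was among either. No gene separated the groups (0 of 10, against 19.3%) and 0 met the fold rule (5.62% of genes). Without KOCKD replicate 3 the median was -0.15. The change with AAV9-cTnT-Rnls was also compared between the genotypes. That difference was called for 0 of 10 genes and 0% of all genes by edgeR, where 2288 genes had an unadjusted p under 0.05 and DESeq2 called 210. Fosb (1.88 ± 1.26, log2, SE) and Atf3 (-1.13 ± 0.69, adjusted p = 0.413) had the largest differences, and the median of the 10 was -0.30.

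**Figure D2:**
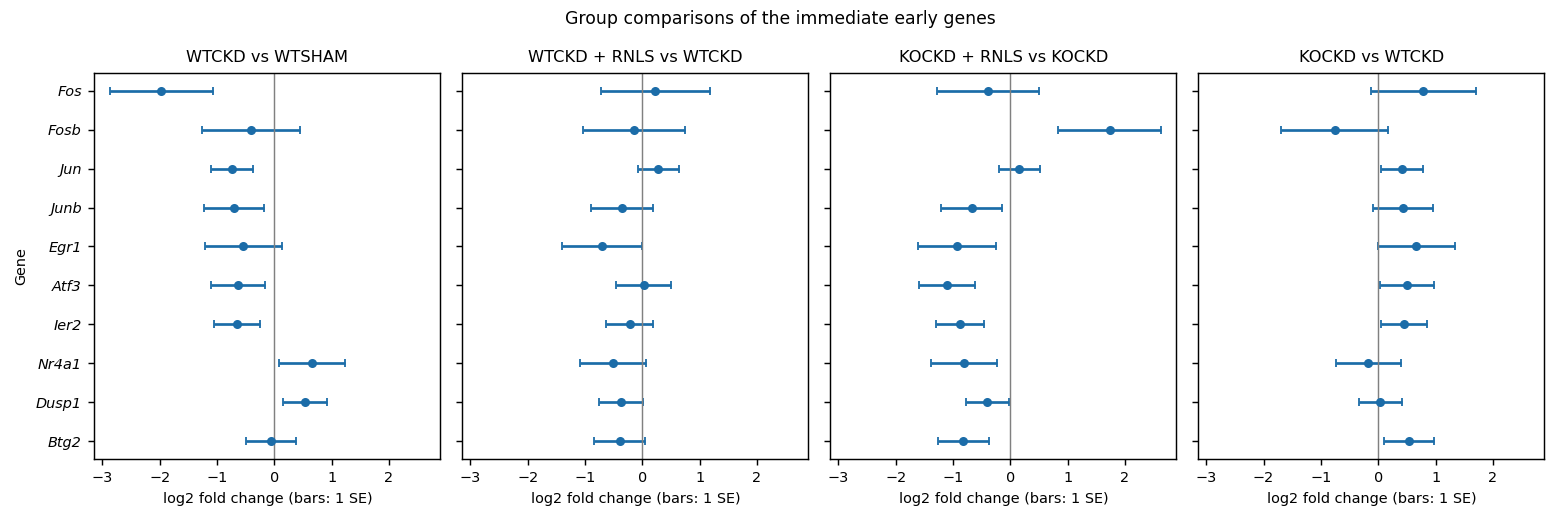
Log2 fold changes of the 10 genes in 4 group comparisons, points with bars of 1 SE from edgeR's fit over 15 libraries. Fos in WTCKD against WTSHAM (-1.97) and Atf3 in KOCKD + RNLS against KOCKD (-1.11) lie farthest below 0 in relation to their bars, and 0 of 10 genes passed the adjusted threshold in each panel.

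**Figure D3:**
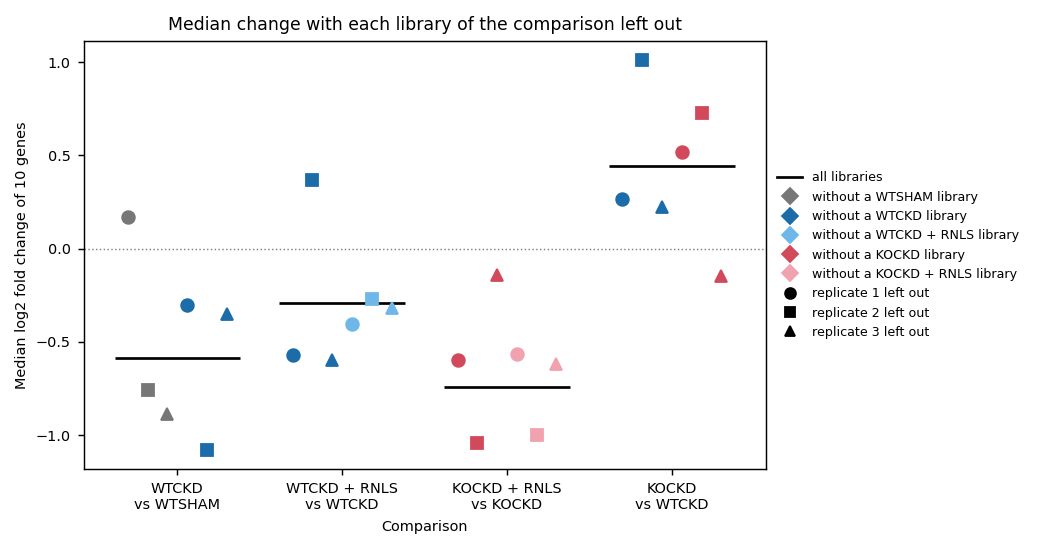
Median log2 fold change of the 10 genes in each comparison with all libraries (line) and with each library of the comparison left out in turn (points, colored by its group, with its replicate as the symbol). The median turned sign without WTSHAM replicate 1 in the first comparison, without WTCKD replicate 2 in the second and without KOCKD replicate 3 in the fourth, and fell toward 0 without the last heart in the third.

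The spread within groups was the main feature of these genes. The pooled SD of log2 CPM between hearts of the same group ran from 0.54 for Jun to 1.5 for Fos, with a median of 0.73 over the 10, where the median gene tested had 0.18. The SD of each gene exceeded that of at least 92.2% of all genes tested and of at least 98.1% of genes at a like level. Differences between group means took a median of 19.0% of the variance of these genes, against 49.3% for all genes tested.

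**Figure D4:**
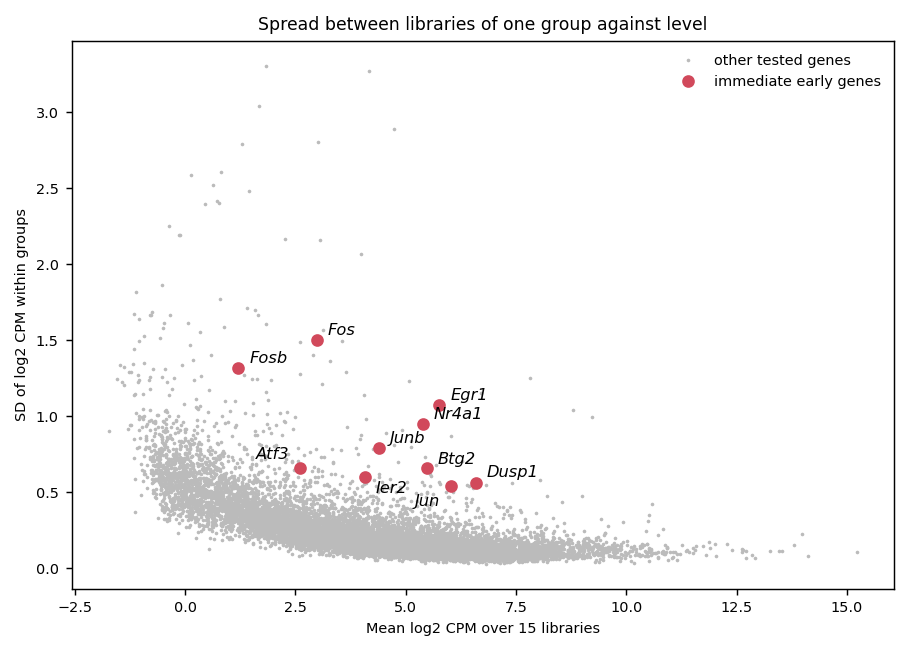
Pooled SD of log2 CPM between hearts of the same group against mean log2 CPM over 15 libraries, with the 10 genes in red and the other tested genes in grey. All 10 lie at the upper edge of the cloud, with Fos at 1.5 and Jun at 0.54.

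Most of these genes were more even between hearts in the groups given the virus. In WTCKD + RNLS the highest heart was under 1.5 times the lowest for 8 of the 10 genes, with exceptions in Egr1 (2.12-fold) and Fosb (4.12-fold). In KOCKD + RNLS this held for 6 of 10, and Fosb (14.9-fold), Fos (5.02-fold), Egr1 (3.18-fold) and Junb (2.23-fold) were apart. In WTSHAM, WTCKD and KOCKD it held for 0 of 10. Of all genes tested, 74.8% met this limit in WTCKD + RNLS, 83.3% in KOCKD + RNLS, and 76.3%, 79.8% and 79.0% in WTSHAM, WTCKD and KOCKD. The highest SD of log2 CPM among the 10 was 1.01 in WTCKD + RNLS and 1.82 in KOCKD + RNLS, the latter above the 1.63 of WTSHAM. The SD of log2 CPM was smaller in WTCKD + RNLS than in WTCKD for 10 of 10 genes, where it was smaller for 36.2% of all genes tested. It was smaller in KOCKD + RNLS than in KOCKD for 9 of 10, all but Fosb, against 60.1% of genes. The 10 genes moved together, so these counts are not 10 separate observations. WTCKD replicate 2 was the highest of its group for 10 genes and KOCKD replicate 3 for 8. Each group had 3 hearts, and this difference in spread was not tested.

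Deviations from the group mean ran together across genes. WTSHAM replicate 1 was the highest of its group for 9 of the 10 and the highest of all 15 libraries for 6, Fos, Jun, Junb, Egr1, Atf3 and Ier2. WTCKD replicate 2 led its group for 10 of 10, and all libraries for Nr4a1 and Dusp1. KOCKD replicate 3 led its group for 8, with Egr1 and Nr4a1 led by replicate 1, and all libraries for Btg2. KOCKD + RNLS replicate 2 led its group for 9, all but Atf3, and all libraries for Fosb. Over the 45 gene pairs, Pearson's r of these deviations over 15 libraries had a median of 0.784 and exceeded 0.5 in 35. The closest pair was Junb and Btg2 (0.935), and the loosest was Fosb and Ier2 (0.194). Fosb had a median r of 0.408 with the other genes and Nr4a1 of 0.526, and Btg2 the highest, 0.897. These values are a description, since the genes share libraries and a few hearts set much of each r.

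**Figure D5:**
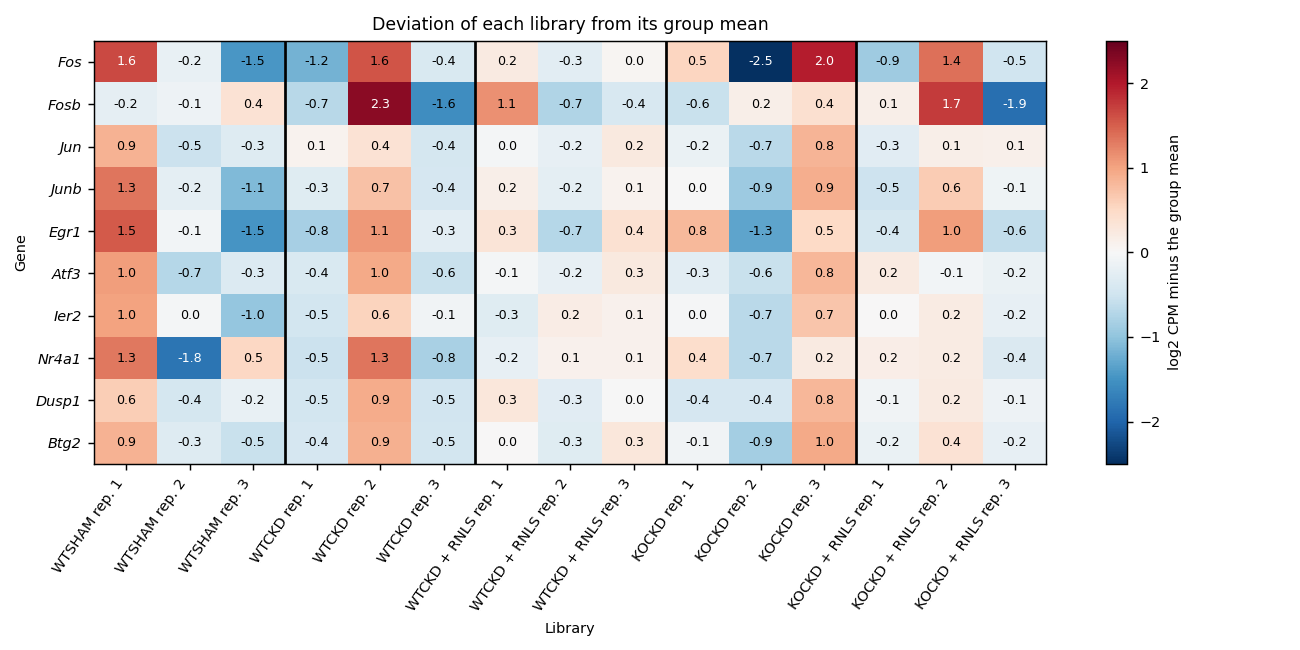
Log2 CPM of each gene minus its group mean in the 15 libraries, colored from blue (below) to red (above) and printed in the cells, with black lines between groups. Columns WTSHAM replicate 1, WTCKD replicate 2 and KOCKD replicate 3 are red in almost every row, and the WTCKD + RNLS columns are pale in most rows, with Fosb the main exception.

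Other measures moved with these hearts, each in its own way. Hspa1a, an inducible heat shock chaperone gene, had 82.5 CPM in WTSHAM replicate 1 against 1.35 to 14.0 in the other 14 libraries, and its near-identical copy Hspa1b 83.0 against 1.03 to 10.4. The split of reads between these copies is uncertain, and the next highest library for both was KOCKD replicate 3. WTCKD replicate 2 had only 2.66 CPM of Hspa1a. Summed atrial markers (Myl4, Myl7, Sln and Nppa) were highest in KOCKD replicate 3 (2649 CPM) and WTCKD replicate 2 (2308 CPM). They reached 148 CPM in WTSHAM replicate 1, and 1147 and 1254 CPM in WTSHAM replicate 3 and WTCKD replicate 1, where the immediate early genes were low. Across the groups they ran from 148 to 1147 in WTSHAM, 84.7 to 2308 in WTCKD, 121.3 to 474 in WTCKD + RNLS, 116.4 to 2649 in KOCKD and 128.3 to 286.5 in KOCKD + RNLS. In knockout hearts Myl7, Myl4 and Sln were called lower with the virus, 3 of 4 markers against 16.1% of genes tested. Myl7 had a mean of 288 ± 449 CPM (SD, n = 3) in KOCKD and 0.579 ± 0.224 in KOCKD + RNLS. In wild type 4 of 4 were below 0 with the virus and 0 were called, against 4.47% of genes tested. Erythrocyte markers, of which 3 of 5 were tested, summed to 198.6 CPM in WTSHAM replicate 1, the highest of all, but to 35.5 in WTCKD replicate 2 and 132.5 in KOCKD replicate 3. Summed clock genes were highest of their group in the same hearts. They had 859.2 CPM in WTSHAM replicate 1, against 672.9 and 542.1 in replicates 2 and 3. WTCKD replicate 2 had 696.2 CPM, against 608.6 and 669.3, and KOCKD replicate 3 had 1062, against 723.4 and 607. They also ran from 1001 to 1254 CPM in WTCKD + RNLS and from 1083 to 1312 in KOCKD + RNLS. The part of any of these in the levels of the immediate early genes was not tested. Clock genes differed between the vector and virus groups, with 12 of 16 called in wild type, against 4.47% of genes tested, and 10 of 16 in knockout, against 16.1%. Arntl, the core activator of the clock, had a mean of 31.8 CPM in WTCKD and 1.88 in WTCKD + RNLS, and 19.3 in KOCKD and 1.51 in KOCKD + RNLS. Per1, a clock repressor that is itself induced early by stimuli, had 49.1 to 60.97 CPM in WTCKD and 87.3 to 111.3 in WTCKD + RNLS, and 16.3 to 50.1 in KOCKD and 91.0 to 95.9 in KOCKD + RNLS. In WTSHAM Per1 had 64.45 CPM in replicate 1, against 18.35 and 30.61 in replicates 2 and 3. Its highest hearts in WTCKD and KOCKD were replicate 2 and replicate 3. The part of the clock difference in the comparisons of virus with vector was not tested.

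The wider early response was read from a list of 50 other genes, of which 47 were tested. In WTCKD against WTSHAM 3 were called higher and 1 lower, 4 of 47 against 2.3% of genes tested. Nfkbia, the NF-kB inhibitor, rose by 1.06 ± 0.19 (log2, SE; adjusted p = 0.00544 by edgeR), Sgk1, a kinase induced by corticosteroids, by 1.07, and the survival gene Mcl1 by 0.33. Irf1, an interferon response factor, fell by 1.24, and its level in WTSHAM replicate 2 was 92.3 CPM against 34.8 and 41.8 in the other sham hearts. Irf1 was thus high in a sham heart that was the highest of its group for 0 of the 10 genes. With AAV9-cTnT-Rnls in wild type, Ier3 (1.19) and Ier5 (1.37), both early response genes, rose, and Myc (-1.28) and the NF-kB feedback gene Tnfaip3 (-0.98) fell, 4 of 47 against 4.47% of genes. Ier5 had 16.9, 19.0 and 17.5 CPM in WTCKD and 43.2, 45.4 and 49.0 in WTCKD + RNLS, so these groups did not overlap, as for 21.2% of genes tested. In knockout hearts 1 gene, Klf6, was called higher with the virus (0.56) and 0 were called lower, where 16.1% of genes were called. Of the 47 genes, 19 were above 0 and 28 below it. Ier3, Ier5, Myc and Tnfaip3 were not called there. Their mean CPM in KOCKD and KOCKD + RNLS was 24.1 and 39.1 (Ier3), 29.4 and 35.1 (Ier5), 6.1 and 3.51 (Myc), and 5.82 and 5.2 (Tnfaip3). KOCKD against WTCKD gave 0 of 47 by edgeR, with 11 at an unadjusted p under 0.05 (10.1% of genes tested). In WTCKD against WTSHAM 18 of 47 had such a p, against 17.6% of genes tested. With the virus 17 of 47 had it in wild type, against 20.2%, and 8 of 47 in knockout, against 31.6%. These counts were not tested against the shares. The list's median log2 fold change was 0.22, -0.38, -0.11 and -0.04 in these 4 comparisons, where all genes tested were near 0.

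Factors upstream of immediate early genes and other AP-1 partners were read from further lists, first in the comparisons of virus with vector. Of 14 upstream genes, such as Srf, Creb1 and the MAP kinases, all 14 were tested. In wild type 1 of 14 was called, against 4.47% of genes tested: Elk3, a ternary complex factor that can repress Fos, fell by 0.60. Endothelial markers were lower in the same comparison, with 6 of 6 below 0, 3 of 6 called (Pecam1, Cdh5 and Kdr) and a median of -0.52. Of all genes tested, 47.8% were below 0 there and 4.47% were called. The endothelial markers summed to 1216 to 1380 CPM in WTCKD and 869.9 to 960.4 in WTCKD + RNLS. Fibroblast and macrophage markers were also below 0 there, 6 of 6 tested each, with medians of -0.37 and -0.31, and 1 (Col1a1) and 0 were called. Fibroblast markers summed to 940.1 to 1435 CPM in WTCKD and 790.8 to 988.3 in WTCKD + RNLS, and macrophage markers to 169.7 to 231.0 and 152.3 to 171.6. Cardiomyocyte markers went the other way, with 10 of 10 above 0, a median of 0.17 and 1 called (Ttn). They summed to 106400 to 123400 CPM in WTCKD and 128100 to 141700 in WTCKD + RNLS. The part of these cell types in the changes with the virus was not tested. In knockout hearts 3 of 14 upstream genes were called, against 16.1% of genes tested, and Elk4 (0.88), Mrtfb (0.55) and the kinase gene Rps6ka5 (0.59) rose. Of 13 AP-1 partners 9 were tested. In knockout hearts 3 of these 9 were called, against 16.1% of genes tested: Atf2 (0.40), Mafg (0.44) and Atf7 (0.47), all higher with the virus. In wild type 0 of 9 were called, against 4.47%. Mean CPM in WTCKD and WTCKD + RNLS was 43.3 and 55.6 for Mafg, 38.2 and 41.2 for Atf2, and 60.3 and 62.1 for Atf7. The difference between the genotypes in the change with the virus was called for 0 of 9 partners, and for 0% of all genes by edgeR. Whether the counts of these lists exceeded the shares over all genes was not tested. In knockout hearts 4 of 6 endothelial, 4 of 6 fibroblast and 6 of 6 macrophage markers were below 0, with 1 of each called lower. Of all genes tested, 50.9% were below 0 and 16.1% were called in this comparison. Of 10 cardiomyocyte markers 7 were below 0 and 3 above it, and 3 (Myh6, Ttn and Ryr2) were called higher. No gene of the upstream and AP-1 partner lists was called by edgeR in WTCKD against WTSHAM or in KOCKD against WTCKD. In WTCKD against WTSHAM 3 and 2 had an unadjusted p under 0.05 (17.6% of genes tested). In KOCKD against WTCKD 1 and 5 had (10.1%).

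Of the 16 calls in these 3 lists, those of Nfkbia (highest adjusted p = 0.0309 by edgeR) and Atf2 (0.0433) held with each of the 15 libraries left out in turn. The other 14 kept their direction and lost the call without at least 1 library, with highest adjusted p between 0.0557 for Elk4 and 0.156 for Sgk1. Without WTSHAM replicate 2 Irf1 stood at -0.69 and was still called.

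Genes most like the set were found by Pearson's r with the mean z-score of the 10 genes over 15 libraries, among 11614 other genes with a mean log2 CPM over 1. The highest were Rab33b (0.776), Zfp36 (0.773), Hspa1b (0.770), Terf1 (0.766), Nudcd2 (0.741) and Hspa1a (0.739), followed by Dpp7, Egr3 (0.730), Pi4k2b and Edn1 (0.721). Zfp36, which encodes an mRNA decay factor, and Egr3, a relative of Egr1, belong to the list of other early response genes, 2 of these 10. Zfp36 had 76.2 CPM in WTSHAM replicate 1, 103.7 in WTCKD replicate 2 and 124.3 in KOCKD replicate 3, and 25.4 to 71.6 in the other 12 libraries. The top 3 hearts for Zfp36 were therefore those of Junb and Btg2. Rab33b and Terf1 moved little, from 9.19 to 14.5 and from 4.42 to 7.62 CPM.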

How the data were processed

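Heart RNA-seq libraries of 15 mice in 5 groups of 3 were analysed. By the study's methods the libraries came from a stranded mRNA kit and paired-end reads. The authors trimmed the reads with Trimmomatic, mapped them with HISAT2, counted reads per gene with HTSeq and computed FPKM with Cufflinks. The study's supplement names mm9 as the genome and the submitters' processing notes name GRCm39, so no gene coordinates on the files' build are given. Tool versions and the strand option of the counting are not given in the sources used here. The authors deposited raw counts for 17447 genes, 300 of them without a count in any library, and FPKM per library, which they normalized for length and library total.

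Here the counts were tested with edgeR 4.0.16 in R 4.3.3: TMM scaling, a filter at a minimum count of 10 (total 15), and a quasi-likelihood fit of the group over all 15 libraries, with Benjamini-Hochberg adjustment over 13021 genes. A gene was called at an adjusted p under 0.05. The common biological coefficient of variation was 0.132. The labels number the samples within each group and name no mouse, and each library was taken as 1 mouse. In a simulation of WTCKD + RNLS against WTCKD over 13021 genes, 172 of 200 changed genes were recovered with 8 false calls. The changed genes had a median fitted log2 change of 1.02 in size, and all genes shared the common coefficient of variation. The 10 genes had SDs of log2 CPM within groups of 0.54 to 1.5, where the median gene tested had 0.18. The recovery therefore does not apply to changes of these 10 genes.

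All 10 members are named, with values in each library. Other early response genes are named where called (at most the 6 of smallest adjusted p in each comparison), as are the 10 genes most like the set. Hspa1a, Hspa1b, Per1, Arntl, the called atrial, endothelial, fibroblast and cardiomyocyte markers and the TGACG core were singled out after values or sequences were seen. The clock sums by heart were also chosen after values were seen. The members, lists and tests were chosen with earlier results of these data known. DESeq2 1.42.0, RLE size factors, an unfiltered table, a replicate block, fits restricted to the compared libraries, the study's fold rule and the omission of each library served as alternatives, applied later also to the called genes of the other lists. Same-numbered libraries correlated at -0.36 to 0.232 in their deviations from group means, so the numbers were not taken as pairs. Python 3.11.15 with pandas 2.3.3 made the tables. Rnls was not analysed here.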

Additional observations from a re-analysis of the deposited data

How the results depend on the processing

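Scaling, filtering, DESeq2 and the replicate block changed no call among the 10 genes: 0 of 10 genes were called in every pairwise comparison, in the difference between genotypes and in the test of any difference. Fitting only the 6 libraries of KOCKD + RNLS against KOCKD called 3, and the fold rule gave 1 in WTCKD against WTSHAM and 2 in KOCKD + RNLS against KOCKD. The test of any difference called 0 to 1 over single left-out libraries. With 3 hearts a group and such spread, fold changes of the size seen here were not resolved. The replicate numbers did not pair the samples by the check used, and 4 of 15 libraries correlated best with their own number. With the replicate block, Fosb in WTCKD + RNLS against WTCKD was 0.29 and Atf3 -0.0159, both turned in sign and far from the threshold. The cause was not tested. Of the genes of other lists, Mcl1 and Klf6 lost their calls with the block, and Mcl1, Sgk1, Irf1 and Tnfaip3 in fits of the compared libraries only, with no change of sign.

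With each library left out in turn, log2 fold changes that turned sign had these ranges. In WTCKD against WTSHAM the median of the 10 ran from -1.08 to 0.17, and 7 genes turned: Fosb -2.66 to 0.12, Junb -1.17 to 0.25, Egr1 -1.28 to 0.55, Atf3 -1.30 to 0.0865, Nr4a1 -0.35 to 1.36, Dusp1 -0.10 to 0.91 and Btg2 -0.65 to 0.51. For WTCKD + RNLS against WTCKD the median of the 10 ran from -0.60 to 0.37, and 9 genes turned: Fos -0.22 to 1.47, Fosb -1.03 to 2.10, Junb -0.57 to 0.11, Egr1 -1.05 to 0.0387, Atf3 -0.26 to 0.68, Ier2 -0.44 to 0.12, Nr4a1 -0.87 to 0.50, Dusp1 -0.62 to 0.26 and Btg2 -0.63 to 0.20. For KOCKD + RNLS against KOCKD the median of the 10 ran from -1.04 to -0.14, and 3 genes turned: Fos -1.47 to 0.83, Jun -0.12 to 0.71 and Dusp1 -0.61 to 0.15. For KOCKD against WTCKD the median of the 10 ran from -0.15 to 1.01, and 8 genes turned: Fos -0.43 to 2.02, Fosb -1.30 to 1.48, Jun -0.14 to 0.68, Junb -0.15 to 0.89, Atf3 -0.0653 to 1.14, Nr4a1 -0.53 to 0.83, Dusp1 -0.51 to 0.66 and Btg2 -0.09 to 1.12. For the difference between the genotypes in the change with the virus the median of the 10 ran from -0.97 to 0.23, and 8 genes turned: Fos -1.85 to 0.60, Fosb -0.36 to 2.77, Jun -0.40 to 0.43, Junb -0.77 to 0.27, Egr1 -0.96 to 0.16, Nr4a1 -1.30 to 0.0617, Dusp1 -0.65 to 0.52 and Btg2 -1.01 to 0.20. The median turned sign without WTSHAM replicate 1 in the first of these, without WTCKD replicate 2 in the second, and without KOCKD replicate 3 in the last 2.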
